A study of Saccharomyces cerevisiae with 11 samples.

Results

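The genes described here are the 7 yeast genes for taking up iron bound to siderophores: the mannoprotein genes FIT1 (YDR534C), FIT2 (YOR382W) and FIT3 (YOR383C) and the transporter genes ARN1 (YHL040C), ARN2 (YHL047C), SIT1 (YEL065W) and ENB1 (YOL158C). They were found by systematic name, all 7 among the 5756 genes listed in any library. They were chosen because FIT2 and FIT3 mRNA was higher and ARN1 footprints were lower in one of the strains, so their differences between strains are given as a description, without p-values, and nothing is read from which of them were called. The study compared Saccharomyces cerevisiae cells whose chromosomal rDNA is depleted and which live on rRNA made from a plasmid. The plasmid carried either the wild-type rRNA sequence (WT) or rRNA without ES7S (ΔES7S). ES7S is an extra stretch that eukaryotic small-subunit rRNA carries beyond the bacterial core. The depletion and the plasmid are shared by both groups, which were grown in YPD, a rich medium, to an OD of 0.8. The labels name the strain yJD1046 for both groups, the series description names yJD1045, and neither says how many clones were used or whether replicates were separate cultures. P-values therefore measure the spread between these libraries, which may be technical.

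Ribosome-protected fragments (footprints), which show where ribosomes sit on mRNA, were sequenced from 3 WT and 3 ΔES7S libraries. Poly(A)-enriched, randomly fragmented mRNA was sequenced from 2 WT libraries (replicates 2 and 3) and 3 ΔES7S libraries. The footprint libraries held 5712239 to 20262647 counts and the mRNA libraries 17981273 to 57968667. The rRNA itself was not analysed here, so the deletion was not checked against the label. Among ΔES7S libraries, cytosolic ribosomal protein genes took between 5.33% (replicate 3) and 11.02% (replicate 1) of footprint counts, against 5.31% to 5.46% in WT. Levels are counts per 1000000 counts of a library (CPM), given with the SD over libraries, and are not compared between genes, since they depend on gene length. Cells were measured in bulk and relative to other genes, so that less RNA per cell and fewer cells with the RNA cannot be told apart.

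Siderophores are small iron chelators that many microbes secrete. Budding yeast makes none, but uses those of other organisms: Fit proteins, anchored in the cell wall, help to hold iron-siderophore complexes near the membrane, and transporters of the Arn family carry the intact complexes into the cell. The transcription factors Aft1 and Aft2 switch these genes on when iron is scarce, together with a second route in which surface reductases free the iron and a permease takes it up with a multicopper oxidase.

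The mannoprotein genes FIT2 and FIT3 had higher mRNA levels in every ΔES7S library than in any WT library, while FIT1 did not part the strains. FIT3 mRNA stood at 27.1 and 28.8 CPM in WT replicates 2 and 3, and at 83.3, 96.5 and 93.9 CPM in ΔES7S replicates 1, 2 and 3. The lowest ΔES7S library was thus well above both WT libraries, and the group means were 27.9 ± 1.21 (SD, n = 2) and 91.2 ± 6.98 CPM (SD, n = 3). The fitted log2 fold change, which also scales for library composition (TMM), was 1.92 ± 0.20 (SE), or 3.78-fold. FIT2 mRNA stood at 33.9 and 29.5 CPM in WT and at 58.6, 74.0 and 84.3 CPM in ΔES7S. Here too the groups did not overlap, with ΔES7S replicate 1 the nearest to WT, and the fitted log2 fold change was 1.40 ± 0.23, or 2.64-fold. FIT1 mRNA was at 13.2 and 14.2 CPM in WT and at 14.8, 9.92 and 11.8 CPM in ΔES7S, with a log2 fold change of 0.01 ± 0.20. The FIT1 groups overlapped, and ΔES7S replicate 1 was the highest of the 5 libraries.

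Footprints of the FIT genes did not follow one pattern. FIT3 footprints were at 12.6, 12.8 and 9.82 CPM in WT replicates 1 to 3 and at 40.01, 30.9 and 12.4 CPM in ΔES7S replicates 1 to 3. ΔES7S replicates 1 and 2 lay above every WT library, whereas replicate 3 lay within the WT range. The log2 fold change was 1.37 ± 0.38, with 1.03 when ΔES7S replicate 1 was left out and 1.68 when ΔES7S replicate 3 was. Ribosomal protein genes took 11.02%, 7.91% and 5.33% of these footprint counts, in the same library order, and its part in the FIT3 difference was not tested. FIT2 footprints were at 19.9, 26.7 and 18.6 CPM in WT and at 18.1, 20.3 and 11.9 CPM in ΔES7S. These groups overlapped (log2 fold change -0.27 ± 0.22), and the value moved to -0.07 without WT replicate 2 and to -0.44 without ΔES7S replicate 2. FIT1 had very few footprints, between 3 and 11 counts in WT libraries and between 2 and 15 in ΔES7S libraries. That is 0.49 ± 0.11 CPM in WT and 0.63 ± 0.37 CPM in ΔES7S (SD, n = 3 each), and the gene did not pass the filter on low counts for footprints.

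**Figure D1:**
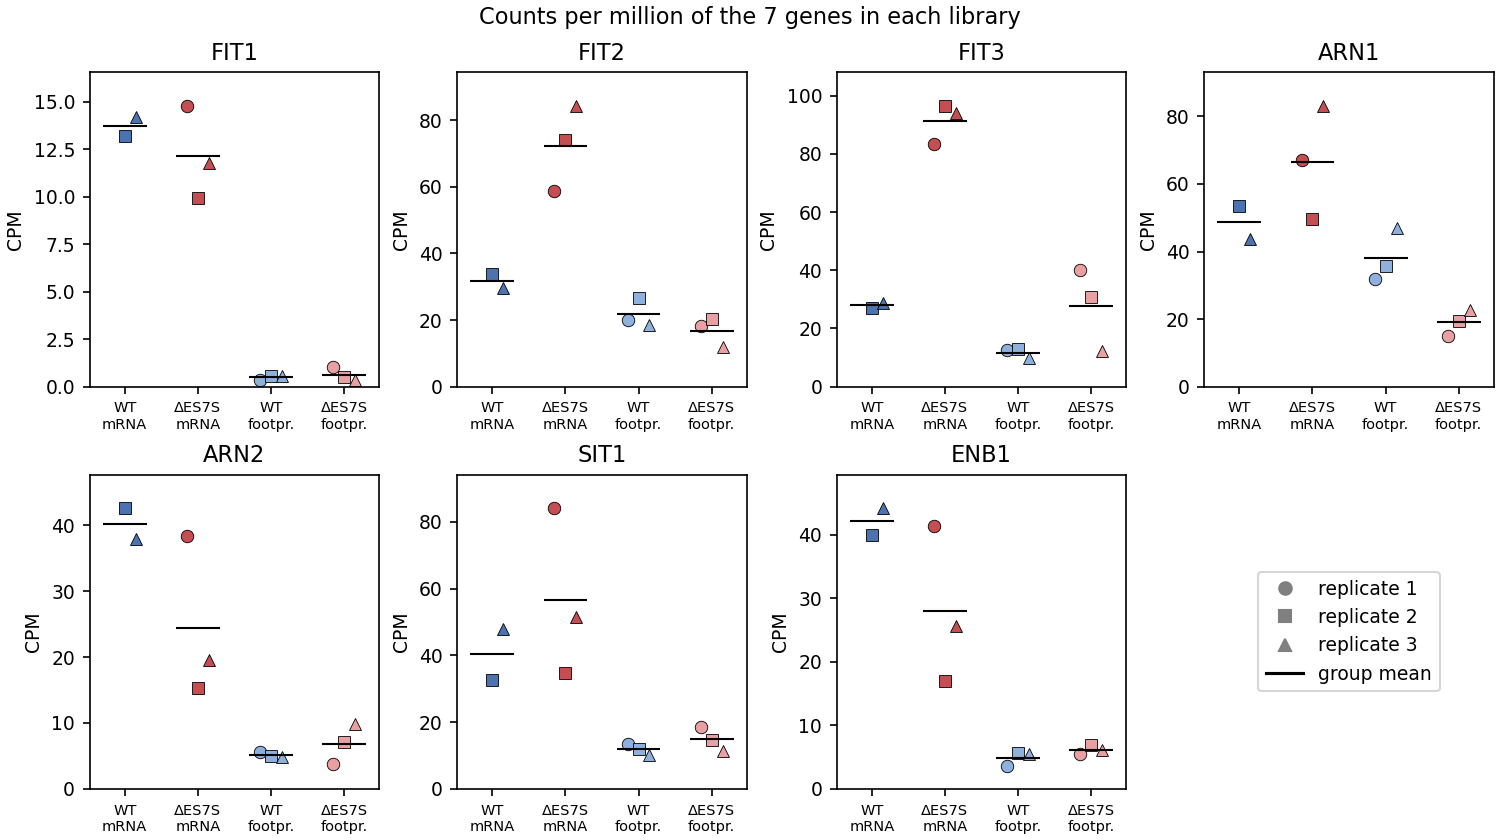
CPM of each of the 7 genes (vertical axis, linear, from 0, its own scale in each panel) in WT and ΔES7S mRNA and footprint (footpr.) libraries. Points are single libraries, with a symbol for each replicate number, and bars are group means. On this scale, without TMM factors, FIT2 and FIT3 mRNA and ARN1 footprints are the values whose strains do not overlap.

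ARN1, which transports hydroxamate siderophores of the ferrichrome type, had fewer footprints in ΔES7S but not less mRNA. ARN1 footprints were at 31.8, 35.8 and 47.0 CPM in WT replicates 1 to 3 and at 14.96, 19.4 and 22.8 CPM in ΔES7S replicates 1 to 3. Every ΔES7S library lay below every WT library, and the group means were 38.2 ± 7.88 and 19.0 ± 3.91 CPM (SD, n = 3 each). The log2 fold change was -0.96 ± 0.18, and it ran from -1.07 to -0.80 when 1 library was left out. ARN1 mRNA was at 53.4 and 43.9 CPM in WT and at 67.0, 49.7 and 83.1 CPM in ΔES7S. In CPM only ΔES7S replicate 2 fell within the WT range. With TMM-scaled log2 levels, relative to the mean of the mRNA libraries, the strains did not overlap. WT stood at -0.29 and -0.52, and ΔES7S replicates 1 to 3 at 0.11, 0.08 and 0.61. The fitted log2 fold change was 0.64 ± 0.20.

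None of the other transporters separated the strains in either assay, and their fitted footprint changes were smaller than that of ARN1. SIT1, also known as ARN3 and a transporter of ferrioxamine B among others, had mRNA at 32.7 and 47.9 CPM in WT and at 84.1, 34.6 and 51.4 CPM in ΔES7S. Its log2 fold change of 0.65 ± 0.30 in mRNA rested largely on ΔES7S replicate 1 and became 0.35 without it, 0.37 without WT replicate 2 and 0.97 without WT replicate 3. SIT1 footprints were at 13.5, 12.0 and 10.3 CPM in WT and at 18.6, 14.5 and 11.4 CPM in ΔES7S (log2 fold change 0.43 ± 0.20, and 0.24 without ΔES7S replicate 1). As with FIT3, ΔES7S replicate 1 was the highest of these 6 libraries.

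ARN2, a transporter of triacetylfusarinine C, and ENB1, also known as ARN4 and a transporter of enterobactin, resembled each other. ARN2 mRNA was at 42.6 and 37.9 CPM in WT and at 38.3, 15.3 and 19.5 CPM in ΔES7S (log2 fold change -0.56 ± 0.30). ENB1 mRNA was at 39.99 and 44.1 CPM in WT and at 41.3, 16.9 and 25.7 CPM in ΔES7S (log2 fold change -0.43 ± 0.27). In both genes ΔES7S replicate 1 lay within the WT range, and replicates 2 and 3 lay below it. Without ΔES7S replicate 1 the log2 fold changes were -0.94 for ARN2 and -0.72 for ENB1, and without ΔES7S replicate 2 they were -0.38 and -0.23. ARN2 footprints were at 5.55, 4.99 and 4.91 CPM in WT and at 3.74, 7.13 and 9.80 CPM in ΔES7S, a log2 fold change of 0.43 ± 0.30 that became 0.76 without ΔES7S replicate 1 and 0.18 without replicate 3. ENB1 footprints were at 3.58, 5.68 and 5.54 CPM in WT and at 5.43, 6.99 and 6.13 CPM in ΔES7S (0.37 ± 0.23, and 0.22 without WT replicate 1). These footprint levels rest on 29 to 115 counts per library, and the strains overlapped in both genes.

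Summed over genes, the FIT mRNAs made up 72.4 and 74.2 CPM in WT and 157 to 190 CPM in ΔES7S, and the 4 transporter mRNAs 169 and 174 CPM in WT and 117 to 231 CPM in ΔES7S. The transporter sum of ΔES7S thus spread around that of WT. Their summed footprints ran from 54.4 to 67.8 CPM in WT and from 42.7 to 50.1 CPM in ΔES7S, a lower sum in which ARN1 was the only one of the 4 with fewer footprints on average. FIT footprints summed to between 29.0 and 40.02 CPM in WT and to 59.2, 51.7 and 24.7 CPM in ΔES7S replicates 1, 2 and 3.

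In the order of its 4 group levels, each gene had more mRNA than footprints, on the CPM scale, within each strain. For FIT3, ΔES7S mRNA came first and overlapped no other group, WT mRNA and ΔES7S footprints overlapped, and WT footprints came last, overlapping only ΔES7S replicate 3. For FIT2 the order was ΔES7S mRNA, WT mRNA, WT footprints and ΔES7S footprints, and the footprint groups overlapped. For ARN1 the neighbours ΔES7S mRNA, WT mRNA and WT footprints overlapped in turn, and ΔES7S footprints stood alone at the bottom. For FIT1, ARN2, SIT1 and ENB1 the strains overlapped within each assay, and the lowest mRNA library lay above the highest footprint library.

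Across all genes, edgeR's quasi-likelihood test with Benjamini-Hochberg adjustment called 155 of 5611 genes in mRNA (2.76%) and 1463 of 5442 in footprints (26.9%) at an adjusted p under 0.05. In mRNA 2 of the 7 genes, FIT2 and FIT3, were called higher and 0 lower, where 1.19% of all genes tested were called higher and 1.57% lower. In footprints 1 of the 6 genes that passed the filter was called higher (FIT3, background 14.2%) and 1 lower (ARN1, background 12.6%). Since FIT2, FIT3 and ARN1 were picked on these comparisons, nothing is read from those counts. Strains without overlap in CPM were found for 2 of 7 genes in mRNA (higher in ΔES7S, background 16.1%, beside 37.7% lower) and for 1 of 6 in footprints (lower, background 27.3%, beside 17.2% higher). The median log2 fold change of the 7 genes was 0.64 in mRNA, beside -0.01 over all genes tested, and that of the 6 in footprints 0.40, beside 0.00. The picked genes enter these medians, so nothing is read from them either. In mRNA the genes other than FIT2 and FIT3 lay on both sides of 0, from -0.56 (ARN2) to 0.65 (SIT1), with FIT1 at 0.01. FIT2 and FIT3 mRNA were no longer called once replicate 2 or 3 of either strain was left out, when edgeR called 0 genes in all. The genes with an unadjusted p under 0.05 then numbered 660 and 766 (WT 2 and 3) and 1344 and 1034 (ΔES7S 2 and 3). With ΔES7S replicate 1 left out it called 2467, FIT2 and FIT3 among them. In footprints FIT3 lost its call in 5 of the 6 fits that left out 1 library, all but the one without ΔES7S replicate 3, and ARN1 kept its call in 6 of 6. ARN1 was picked for its value in these same libraries, so a kept call is no support for it.

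**Figure D2:**
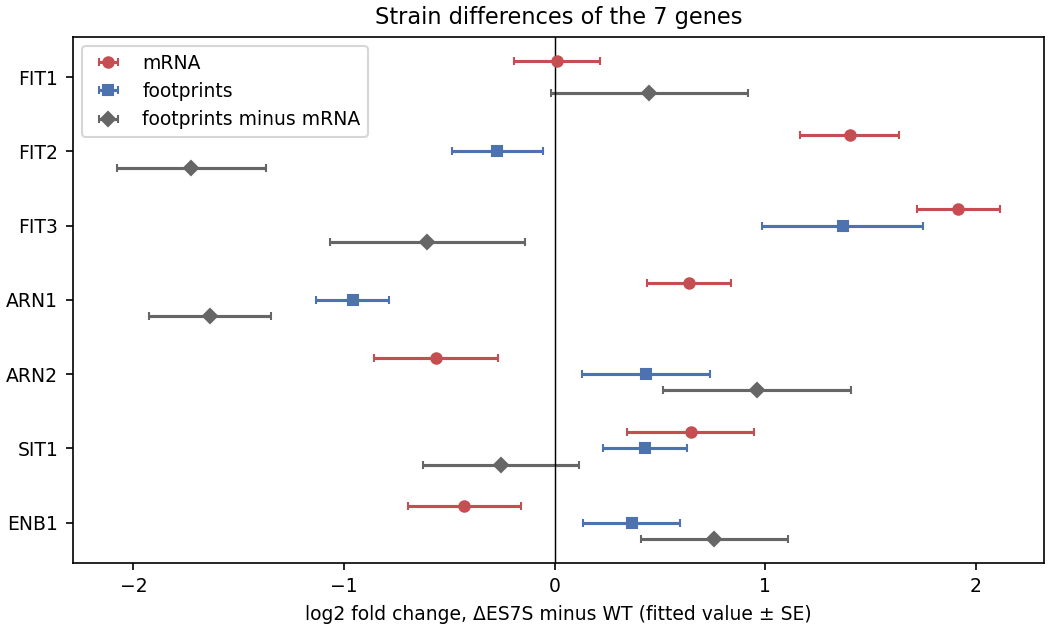
Fitted log2 fold change, ΔES7S minus WT (horizontal axis), of the 7 genes in mRNA (circles), footprints (squares) and footprints minus mRNA (diamonds), with SE as bars. FIT2 and ARN1 lie right of 0 in mRNA and left of 0 in footprints, while ARN2 and ENB1 lie on the opposite sides, and FIT1 has no footprint value because it did not pass the filter.

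Translation efficiency, here footprints relative to mRNA, was taken from 1 model over all 11 libraries. It is a sum of the comparisons that chose the genes, so it too is a description. FIT2 and ARN1 had fewer footprints per mRNA in ΔES7S than in WT, by log2 differences of -1.73 ± 0.35 and -1.64 ± 0.29 (SE). FIT3 had -0.60 ± 0.46 and SIT1 -0.26 ± 0.37, while ARN2 had 0.96 ± 0.45, ENB1 0.76 ± 0.35 and FIT1 0.45 ± 0.47. Of the 7 genes 2 were called lower (FIT2 and ARN1) and 0 higher, beside 4.33% lower and 4.63% higher (8.97% in all) over 5588 genes tested. FIT2 lost its call in 3 of the 11 fits without 1 library (WT mRNA 2, WT mRNA 3 and WT footprints 2), and ARN1 in 2 of 11 (WT mRNA 2 and 3). Since the genes were chosen on these values, nothing is read from the calls. Of the FIT1 footprints, ΔES7S replicate 1 held 15 counts, and without that library the FIT1 difference was -0.17. That of SIT1 lay at 0.01 without WT mRNA replicate 2, at -0.59 without WT mRNA replicate 3 and at 0.03 without ΔES7S mRNA replicate 1.

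In ΔES7S the genes other than FIT1 stood closer together in this ratio than in WT. The ratio of mean footprint to mean mRNA CPM in WT was 0.786 for ARN1, 0.684 for FIT2, 0.421 for FIT3, 0.295 for SIT1, 0.128 for ARN2 and 0.117 for ENB1. In ΔES7S the same 6 genes lay between 0.221 (ENB1) and 0.305 (FIT3). The highest ratios of WT were lower in ΔES7S and the lowest were higher, and the choice of FIT2 and ARN1 fixes part of that. FIT1 had 0.0360 in WT and 0.0522 in ΔES7S.

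Averaged over both strains, the same log2 ratio, fitted over all libraries, was -1.09 ± 0.14 for ARN1, -1.32 ± 0.17 for FIT2 and -1.48 ± 0.23 for FIT3 (SE). These 3 genes were chosen on values that enter the mean, so they are described without a p-value, and the strains differ. In WT, ARN1 had -0.27 ± 0.21, FIT2 -0.46 ± 0.25 and FIT3 -1.18 ± 0.34. In ΔES7S they had -1.90 ± 0.20, -2.19 ± 0.24 and -1.78 ± 0.31. The low mean of ARN1 and FIT2 thus came mostly from ΔES7S. The other transporters, whose values did not prompt the choice, were low in each strain. SIT1 had a mean of -1.83 ± 0.19 (-1.70 in WT and -1.95 in ΔES7S), with adjusted p = 1.44e-06 by edgeR. ARN2 had -2.42 ± 0.22 (-2.90 and -1.94, adjusted p = 6.42e-07 by edgeR) and ENB1 -2.60 ± 0.18 (-2.98 and -2.22, adjusted p = 3.48e-08 by edgeR). Over the 5588 genes tested, 39.1% were called lower and 38% higher (77.1% in all), so a call alone sets no gene apart. In the distribution over all genes SIT1 lay at percentile 4.9, ARN2 at 3 and ENB1 at 2.8, and the middle 80% of genes ran from -1.31 to 1.41. FIT1 had -4.42 ± 0.21 (percentile 1.3), but it passed the filter only through its mRNA, so that it had to lie low. The assays differ in how fragments were made, and reads that match several genes may have been counted differently, so a level across assays is not an absolute number of ribosomes per mRNA.

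**Figure D3:**
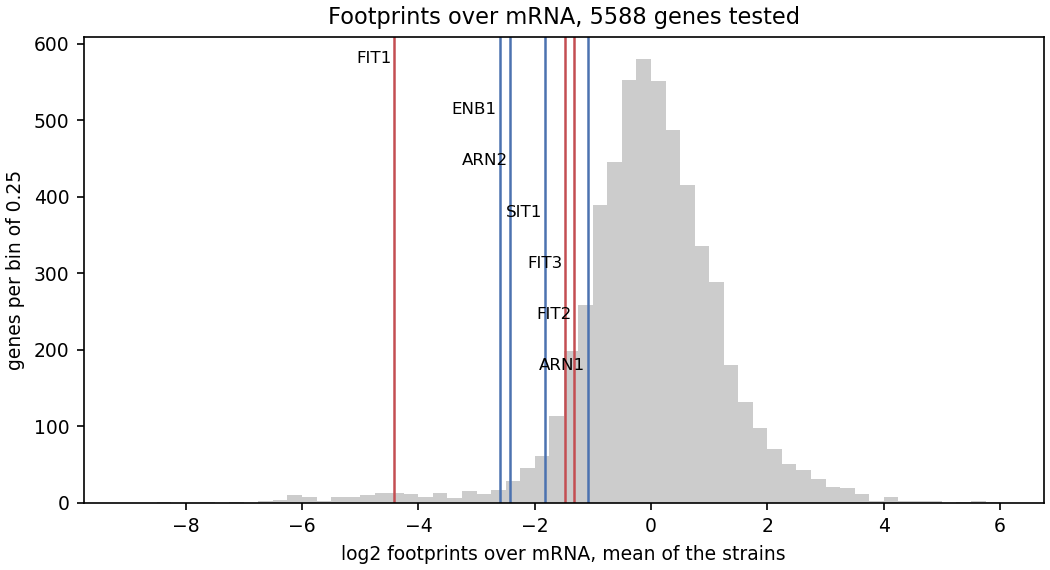
Histogram of the log2 ratio of footprints over mRNA, averaged over the strains (horizontal axis), of all 5588 genes tested, in bins of 0.25 (vertical axis, genes per bin). Red lines mark the FIT genes and blue lines the transporters, which all lie left of 0, from ARN1 at -1.09 to FIT1 at -4.42.

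Of 25 other targets of Aft1 and Aft2, 0 rose and 0 fell in mRNA and 25 did not pass edgeR's test, beside 2.76% called over all genes. With so low a share, 0 of 25 does not show that these targets were unchanged. Of the 25, 8 had an unadjusted p under 0.05, beside 1727 of 5611 over all genes. Their median log2 fold change was 0.09, beside -0.01 over all genes. FET3, the multicopper oxidase of the reductive route, had 292 ± 50.8 CPM in WT (SD, n = 2) and 314 ± 12.6 CPM in ΔES7S (SD, n = 3; log2 fold change 0.31 ± 0.20). Its partner FTR1, the iron permease, had 257 ± 7.64 and 225 ± 15.2 CPM, a log2 fold change of 0.01 ± 0.17 that turned to -0.07 with upper-quartile scaling. TIS11, which encodes an RNA-binding protein that destabilises mRNAs of iron-using proteins, had the largest positive value of the list, 1.08 ± 0.25 with adjusted p = 0.0571 by edgeR, and it was named after its value was seen. Of the 25 log2 fold changes in mRNA, 14 were positive and 11 negative. HMX1 mRNA was lower, at 108.9 to 109.7 CPM in WT and 32.9 to 77.0 CPM in ΔES7S. FRE2 mRNA was also lower without overlap in CPM, with a log2 fold change of -0.49 ± 0.21 (adjusted p = 0.165 by edgeR). Over all genes tested in mRNA, 37.7% were lower in ΔES7S without overlap in CPM, so this sets neither HMX1 nor FRE2 apart. HMX1 and FRE2 were likewise named after their values were seen. DESeq2 called 6 of the 25 mRNAs, 5 of them higher, limma-voom called 0, and edgeR called 9, 6 of them higher, without ΔES7S replicate 1.

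In footprints 2 of the 22 targets tested fell, 1 rose and 19 did not pass, beside 12.6% lower and 14.2% higher over all genes, with a median of -0.08. FRE1, a ferric reductase of the cell surface, was one of those that fell. FRE1 footprints were at 420, 461 and 634 CPM in WT replicates 1 to 3 and at 224, 267 and 375 CPM in ΔES7S replicates 1 to 3, without overlap. The log2 fold change was -0.73 ± 0.21 with adjusted p = 0.0262 by edgeR, and it lost the call without WT replicate 2 (adjusted p = 0.0608), WT replicate 3 (0.116) or ΔES7S replicate 2 (0.101). FRE1 mRNA was at 240 and 258 CPM in WT and at 357, 215 and 345 CPM in ΔES7S (log2 fold change 0.47 ± 0.20, adjusted p = 0.155). The difference of these changes was itself called, as it was in 8.97% of all genes, at -1.25 ± 0.31 with adjusted p = 0.033 by edgeR. It was not called with upper-quartile scaling (adjusted p = 0.0544). It was the only 1 of 25 targets called in translation efficiency, a call that was lost in 7 of the 11 fits that left out 1 library.

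BNA2, an enzyme of NAD synthesis from tryptophan, had 60.5 ± 14.7 CPM of footprints in WT and 27.3 ± 4.75 in ΔES7S (SD, n = 3 per strain), and fell by 1.09 ± 0.18 on the log2 scale with adjusted p = 0.00289 by edgeR. FTH1, a vacuolar iron transporter, had 70.02 ± 3.22 CPM in WT and 103 ± 28.1 in ΔES7S, and rose (0.62 ± 0.16, adjusted p = 0.0186 by edgeR, and 0.0588 to 0.0711 without 1 of the WT libraries). FET3 and FTR1 footprints had -0.24 ± 0.30 and -0.17 ± 0.12, neither past edgeR's test. FET3 footprints spread widely in ΔES7S, from 89.8 CPM in replicate 1 to 36.8 CPM in replicate 3, against 67.1 to 89.96 CPM in WT. Without ΔES7S replicate 3 the log2 fold change was 0.02, and without replicate 1 it was -0.59. The number of targets called in footprints was 1 without WT replicate 2 or 3 and 5 without ΔES7S replicate 1 or 3.

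**Figure D4:**
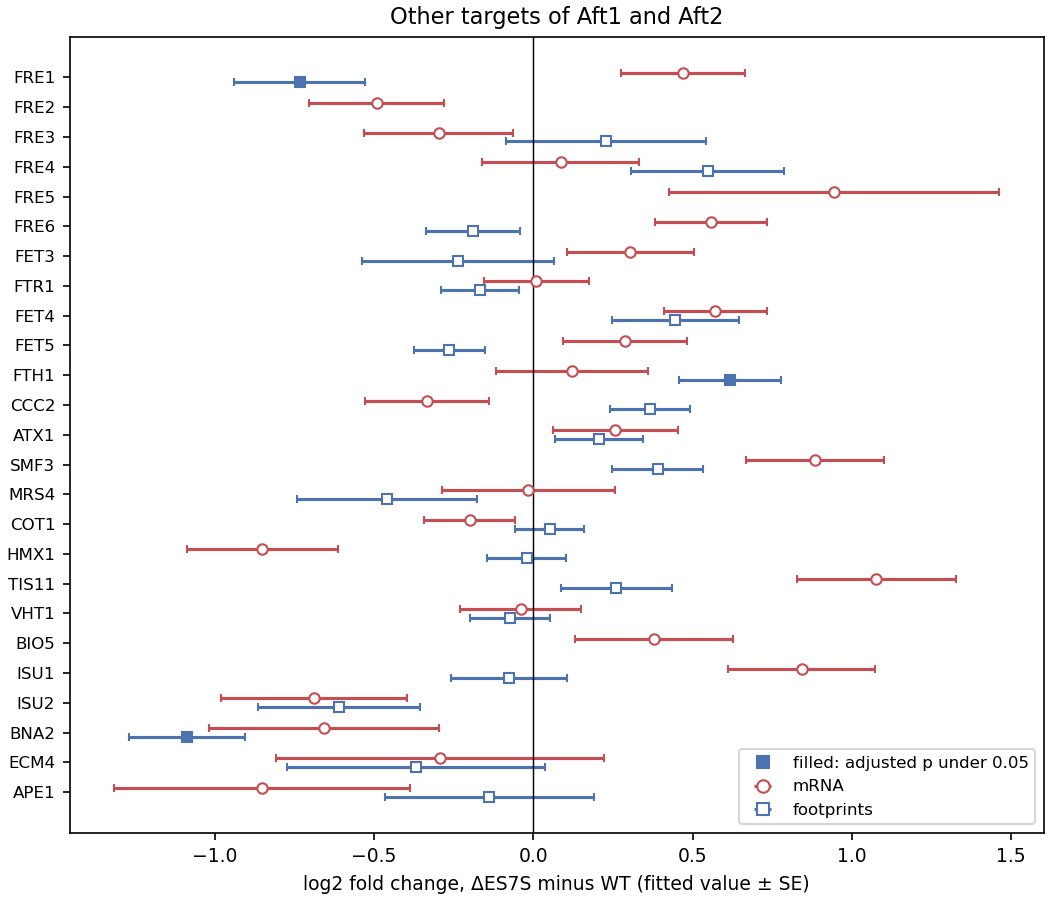
Fitted log2 fold change, ΔES7S minus WT (horizontal axis), of 25 other targets of Aft1 and Aft2 in mRNA (circles) and footprints (squares), with SE as bars. Filled symbols have an adjusted p under 0.05, which are the footprints of FRE1, BNA2 and FTH1, and 3 genes have no footprint value because they did not pass the filter on low counts.

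Of 9 genes for iron regulation and sensing, 2 fell in footprints, where 12.6% of all genes did, and 7 did not pass edgeR's test (median -0.13). In mRNA 0 of 9 passed, beside 2.76% of all genes (3 at an unadjusted p under 0.05, DESeq2 1, limma-voom 0, median 0.13). In translation efficiency 1 of 9 was called, beside 8.97% of all genes. AFT1, the main activator of the 7 genes, had 73.0 ± 4.05 and 58.6 ± 6.39 CPM in mRNA (log2 fold change -0.12 ± 0.14) and 24.3 ± 4.95 and 20.7 ± 3.94 CPM in footprints (-0.13 ± 0.18), past the test in neither. Footprints of its paralog AFT2 fell from 145, 179 and 178 CPM in WT to 89.3, 110 and 121 CPM in ΔES7S, a log2 fold change of -0.58 ± 0.14 with adjusted p = 0.0117 by edgeR. Without WT replicate 2 or 3 the adjusted p was 0.0523 or 0.0572. AFT2 mRNA had -0.34 ± 0.24 (adjusted p = 0.342), and the difference between assays was not past the test. Footprints of GRX4, a glutaredoxin that relays the iron state to Aft1, were at 79.5, 83.4 and 107 CPM in WT and at 52.1, 52.9 and 48.3 CPM in ΔES7S, and fell by 0.74 ± 0.12 on the log2 scale with adjusted p = 0.00231 by edgeR. GRX4 mRNA was at 0.13 ± 0.14, and its translation efficiency was lower by -0.91 ± 0.20 with adjusted p = 0.0215, which 4 of the 11 fits that left out 1 library put above 0.05.

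Of 27 genes for iron-using proteins, with iron-sulfur clusters, haem or iron at the active site, 7 fell and 1 rose in footprints, beside 12.6% lower and 14.2% higher over all genes (26.9% in all). The other 19 did not pass, and the median was -0.31 beside 0.00 over all genes. Their mRNA had 0 of 27 past edgeR's test, beside 2.76% of all genes (6 at an unadjusted p under 0.05, DESeq2 1, limma-voom 0), with a median of 0.13. OLE1, the fatty acid desaturase, went from 1070 ± 131 to 356 ± 85.1 CPM in footprints (log2 -1.52 ± 0.18, adjusted p = 0.00072 by edgeR), and BIO2, the iron-sulfur enzyme biotin synthase, from 148 ± 11.8 to 59.3 ± 10.2 CPM (-1.26 ± 0.13, adjusted p = 0.000366). Footprints of MET5, a subunit of sulfite reductase, had -1.07 ± 0.32 (adjusted p = 0.039, and 0.0797 to 0.107 without WT replicate 1, 2 or 3 or ΔES7S replicate 2). In translation efficiency OLE1 and BIO2 were the 2 of 27 that passed, at -1.72 ± 0.31 and -1.71 ± 0.22 (adjusted p = 0.0124 and 0.00591 by edgeR), beside 4.33% of all genes called lower. OLE1 lost that call without WT mRNA replicate 2 (adjusted p = 0.0915) or 3 (0.0622). The number called in footprints was 4 without ΔES7S replicate 2, 13 without ΔES7S replicate 1 and 12 without ΔES7S replicate 3.

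Fit proteins are also cell wall mannoproteins, and of 21 other genes of that kind 1 rose in mRNA and 0 fell (median 0.21), beside 1.19% higher and 1.57% lower over all genes. That gene was TIP1, at 455 and 366 CPM in WT and at 1106, 1421 and 1529 CPM in ΔES7S (log2 fold change 1.94 ± 0.28, adjusted p = 0.0355 by edgeR). As for FIT2, ΔES7S replicate 1 was the nearest to WT, and the call was lost in the 4 fits that left out another library (adjusted p from 0.0621 to 0.293). In footprints 4 of 19 rose, 2 fell and 13 did not pass (median 0.24), beside 14.2% higher and 12.6% lower over all genes, among them CWP1 at 1.001 ± 0.27 (adjusted p = 0.0254), TIP1 at 0.90 ± 0.18 (adjusted p = 0.00546) and TIR3 at -0.81 ± 0.26 (adjusted p = 0.0396) by edgeR. The number called in footprints was 1 without WT replicate 2 or ΔES7S replicate 2, and 3 without WT replicate 1 or 3. TIR3 and CWP1 each lost the call in 4 of the 6 fits without 1 library, and TIR3 also with limma-voom (adjusted p = 0.0835) and in the joint fit (0.066). In translation efficiency edgeR called 0 of 20 mannoprotein genes, beside 8.97% of all genes (3 at an unadjusted p under 0.05, DESeq2 2, limma-voom 0).

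FIT2 and FIT3 lie side by side on chromosome XV, near other iron genes, in the order FRE3, YOR381W-A, FIT2, FIT3 and FRE5 (gene order of the RefSeq assembly R64). FRE3, a reductase that acts on siderophore-bound iron, had mRNA at 19.9 and 20.1 CPM in WT and at 18.3, 9.39 and 15.7 CPM in ΔES7S, with a log2 fold change of -0.30 ± 0.23. FRE5, a putative reductase on the far side, was nearly silent, with 0.520 ± 0.119 CPM in WT and 0.914 ± 0.428 CPM in ΔES7S (0.95 ± 0.52). Neither passed edgeR's test, with adjusted p = 0.4 and 0.243, so the difference of the pair was not detected in these neighbours.

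The 7 genes lie within 4 (ARN2) to 13 (FIT2) annotated genes of a chromosome end. Of 12 direct neighbours that are not among the 7, 10 were tested in mRNA, where edgeR called 0, beside 2.76% of all genes (1 at an unadjusted p under 0.05). Their log2 fold changes ran from -1.06 (YOR381W-A) to 1.09 (STL1). In translation efficiency 2 of 9 tested were called, beside 8.97% over all genes. In footprints 1 of 7 tested was called, EFM1 beside ARN1, which is no more than the 26.9% called over all genes. EFM1 encodes a methyltransferase that modifies elongation factor eEF1A. Its footprints were at 94.7, 113 and 123.1 CPM in WT and at 48.6, 50.7 and 72.7 CPM in ΔES7S, a log2 fold change of -0.89 ± 0.16 with adjusted p = 0.00312 by edgeR. EFM1 mRNA had -0.06 ± 0.13. No gene of the RefSeq table overlapped any of the 7.

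Likeness between genes was described by the correlation of log2 CPM over the 11 libraries, after the mean of each assay was taken away. These libraries share strain and depth, and they include the ones that chose the genes. Among 4503 other genes whose mean log2 CPM reached 4 in each assay, the one most like ARN1 was FRE1 (r = 0.946, Spearman's rho 0.955). It was followed by IZH1, a membrane protein of zinc homeostasis, at r = 0.941, FUM1 (fumarase) at 0.933, TPO2 (a polyamine exporter) at 0.926 and CLG1 at 0.925. FRE1 was picked here for the highest r, so that it runs in parallel with ARN1 adds nothing to that value. Among footprints both were highest in WT replicate 3 and lowest in ΔES7S replicate 1. That order is not particular to the pair, since in CPM footprints of BNA2, OLE1, BIO2 and EFM1 had it too. GRX4, lowest in ΔES7S replicate 3, and AFT2, highest in WT replicate 2, did not. For BIO2 the order rested on 155.3 CPM in WT replicate 3 against 154.4 CPM in WT replicate 2, so it may not hold with TMM scaling.

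The gene most like FIT3 was ECM33, a GPI-anchored cell wall protein of the mannoprotein list (r = 0.986, rho 0.973; mRNA log2 fold change 1.30, adjusted p = 0.0564 by edgeR), followed by ERV15, RPS8A, COS111 and RPB7 at r between 0.967 and 0.978. RPS8A encodes a protein of the small ribosomal subunit and RPB7 a subunit of RNA polymerase II. The genes most like FIT2 were YDR034W-B (CPP3), ACA1, RSC30, MLF3 and ATP2, at r between 0.932 and 0.958. Among the 7 themselves, the highest r over 11 libraries was 0.717, between FIT3 and SIT1, and FIT2 and FIT3 had 0.702. FIT3 and ARN1 had -0.139, a pooled value over unlike assays. Over the 6 footprint libraries alone FIT3 and ARN1 had r = -0.888, FIT3 and SIT1 0.941 and FIT2 and FIT3 0.174. Over the 5 mRNA libraries the same pairs had 0.829, 0.579 and 0.975, and FIT2, FIT3 and ARN1 all had higher means in ΔES7S. These values span both strains, so they largely restate the strain differences that chose FIT2, FIT3 and ARN1. The libraries are also few, and nothing is read from these correlations.

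**Figure D5:**
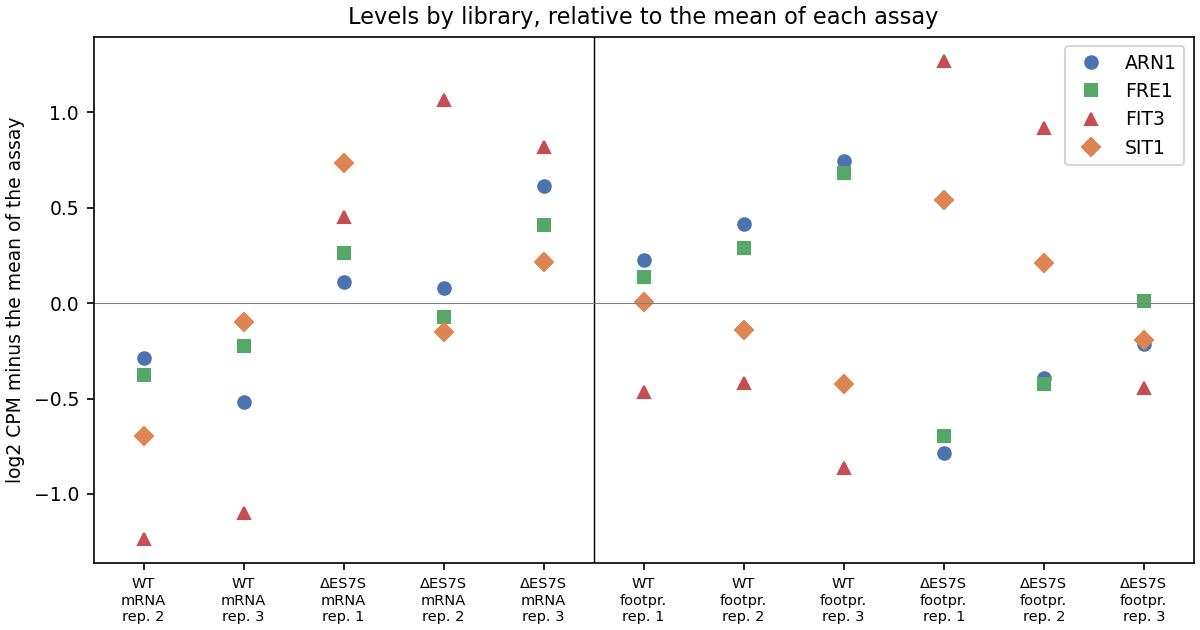
Log2 CPM (TMM-scaled) of ARN1, FRE1, FIT3 and SIT1 in each of the 11 libraries, relative to the mean of the mRNA libraries (left of the line) or of the footprint libraries (right). ARN1 and FRE1 points lie close together in each library (r = 0.946). In ΔES7S footprint replicates 1 and 2, FIT3 and SIT1 lie above 0 and ARN1 and FRE1 below.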

How the data were processed

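For each of the 11 libraries the authors deposited raw counts by gene, listing genes with at least 1 count, and a gene that a table does not list was taken as 0. Per the submitters' processing notes FastQC 0.11.7 and Bowtie 1.2.3 were used. Genome build, annotation, counter, strand setting and the treatment of multi-mapped reads: not given in the sources used here. Per the labels' protocols, footprints came from RNase-treated 80S ribosomes, fragments of 24 to 28 nt were selected and 4 to 8 PCR cycles were run, with no molecular identifiers named, so that counts may include PCR copies. Of 5756 gene names 5752 matched RefSeq R64, which gave symbols and gene order. RefSeq coordinates served only for gene order and for overlaps between genes. Sequences and lengths were not used. From here on the values were computed for this report: edgeR 4.0.16 in R 4.3.3 (filterByExpr, TMM, robust glmQLFit, glmQLFTest), over all genes, with Benjamini-Hochberg adjustment and a threshold of 0.05. mRNA (5 libraries) and footprints (6) were fitted apart, and translation efficiency and footprints over mRNA in a joint model with 1 mean per group. SE is the log2 fold change over the square root of F. CPM use library totals without TMM factors (0.803 to 1.11 over all libraries), so ratios of CPM can differ from fitted values. Within groups, libraries differed by more than counting noise (chi-square per degree of freedom of 27.5 or more). The model was also run on simulated counts with the same spread set for every gene and library. That setting is simpler than these data, so nothing about the calls here is read from it. The genes, gene lists, tests and alternatives (DESeq2 1.42.0, limma-voom 3.58.1, other scalings, no filter, a joint fit, a replicate term, each library left out) were chosen with earlier results of these data known. Named were the 7 genes, AFT1, AFT2, FET3, FTR1, FRE3, FRE5, up to 3 called genes with the largest change per list and comparison, direct neighbours, and the 5 genes most like FIT2, FIT3 and ARN1. TIS11, HMX1 and FRE2 were named after their mRNA values were seen.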

Additional observations from a re-analysis of the deposited data

Results flagged for a closer look

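Strain effects that differed between mRNA and footprints were marked for 3 of the 7 genes, because every ΔES7S library lay on one side of the WT mean in mRNA and on the other in footprints. The difference, as log2 of footprints minus mRNA, was -1.73 for FIT2 and -1.64 for ARN1, with mRNA above and footprints below WT, and 0.76 for ENB1, with mRNA below and footprints above. The marks used CPM without TMM factors. With TMM-scaled log2 levels, relative to the mean of the mRNA libraries, ENB1 mRNA was at 0.28 in ΔES7S replicate 1. That lies above the mean of the WT libraries (0.17 and 0.36), so ENB1 would not be marked on that scale. The edgeR fit called FIT2 and ARN1 and did not call ENB1. FIT2 and ARN1 were chosen on the comparisons that make up the difference, so nothing is read from these calls or from their contrast with ENB1. Over all genes tested, edgeR's interaction test called this difference in 501 of 5588 (8.97%). Within the gene lists of this report it was called in 4: FRE1 at -1.25, GRX4 at -0.91, OLE1 at -1.72 and BIO2 at -1.71. Each of them had fewer footprints in ΔES7S with mRNA at or slightly above WT, from 0.13 for GRX4 to 0.47 for FRE1.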

How the results depend on the processing

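The fitted directions of FIT2 and FIT3 mRNA (log2 1.29 to 1.60 and 1.78 to 2.05), FIT3 footprints (1.03 to 1.68) and ARN1 footprints (-1.07 to -0.80) held under each of the alternatives run, as did footprints over mRNA of the 7 genes. FTR1 mRNA, near 0, changed sign with upper-quartile scaling (-0.065), and leaving out 1 library gave -0.087 to 0.069. FIT1 mRNA, also near 0, ran from -0.068 to 0.088. FET3 footprints had -0.591 with ΔES7S replicate 1 left out and 0.018 with ΔES7S replicate 3 left out. Counts of called genes depended more on the processing. In mRNA (155) DESeq2 called 1036, limma-voom 327, a joint fit 1463 and a replicate block 1924, and leaving out 1 library gave 0 to 2467. In translation efficiency (501) DESeq2 called 903, and leaving out 1 library gave 11 to 1848. In footprints (1463) and footprints over mRNA (4309) the ranges were 684 to 1749 and 4027 to 4501. Of the other Aft1 and Aft2 targets, DESeq2 called 6 in mRNA, a joint fit 6 and a replicate block 8, and leaving out 1 library gave 0 to 9. In footprints leaving out 1 library gave 1 to 5 of them. In translation efficiency upper-quartile scaling called 0, DESeq2 4 and a replicate block 4, and leaving out 1 library gave 0 to 8. For iron regulators, iron-using genes and mannoproteins (0, 0 and 1 called in mRNA) DESeq2 called 1, 1 and 8, a joint fit 3, 5 and 8, a replicate block 4, 6 and 6, and limma-voom 3 mannoproteins. In translation efficiency (1, 2 and 0) DESeq2 called 3, 4 and 2. Leaving out ΔES7S mRNA replicate 1 gave the highest mRNA counts, at 5, 7 and 10. Upper-quartile scaling moved the median translation efficiency of all genes by 0.11 and the share of higher calls from 51.7% to 66.7%. Replicate numbers are shared by the groups, but same-numbered libraries of the strains did not deviate together throughout (r of 0.01, 0.20 and 0.09 in footprints, -0.14 and -0.66 in mRNA), so the replicate block is given only here. Levels per kilobase were not run, because no gene lengths of the authors' annotation were used. The 2 WT mRNA libraries and the few FIT1 footprints limit what these counts can show.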
